A study of Mus musculus with 74 samples.

Results

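The 8 genes described here encode cytoplasmic intermediate filament proteins other than keratins: nestin (Nes), vimentin (Vim), glial fibrillary acidic protein (Gfap), alpha-internexin (Ina), the light and medium neurofilament proteins (Nefl, Nefm), synemin (Synm) and desmin (Des). They were taken as the rows that carry these names in both deposited expression tables, and all 8 were found among the 21241 genes of the NSC-medium table and among the 20558 genes of the parallel table. All 8 passed the filter on low values in both tables.

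RNA was sequenced from mouse cells during conversion of embryonic fibroblasts (MEFs) into induced neural stem cells (iNSCs). Dox-inducible lentiviruses and an M2rtTA lentivirus delivered the factors, and doxycycline (Dox, 1 µg/mL) switched them on. eSox17FNV is an engineered Sox17. Each group held 2 libraries except where stated. In the NSC-medium experiment, on Sox2-GFP MEFs, K_FNV cells received Klf4 and eSox17FNV. BKM_FNV cells received Brn4, Klf4, c-Myc and eSox17FNV, BKM_Sox17 cells the same with Sox17 in place of eSox17FNV, and BKM_Sox2 cells the same with Sox2. These were sampled on days 4, 8, 12 and 18 with Dox and on days 24 and 30 without it, in medium with bFGF and EGF (NSC medium). In the parallel experiment, Nanog-CreER/Rosa26-tdTomato/Sox2-GFP MEFs received Klf4, c-Myc and eSox17FNV in N2B27 medium (days 4 and 8). They were then split into LIF/2i medium, a pluripotent stem cell medium, or NSC medium (days 12 and 16 with Dox, days 20 and 24 without). The references included 2 iNSC lines at passage 15, made with 4 factors including eSox17FNV (iNSC_BKMF) or with Klf4 and eSox17FNV (iNSC_KF). The other references were primary Sox2-GFP neural stem cells at passage 15 (NSC) and Sox2-GFP MEFs at passage 1. The labels do not say whether a line is 1 clone or whether replicates were separate cultures, so p-values measure only the spread between these libraries.

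Intermediate filaments are ropes of coiled-coil rod proteins that form part of the cytoskeleton. Which of these genes a cell uses is a classic sign of its type. Fibroblasts use vimentin, muscle cells use desmin, dividing neural stem cells use nestin with vimentin, astrocytes add GFAP, and neurons change to alpha-internexin and then to the neurofilament proteins. Nestin and synemin are large members that enter filaments together with partners such as vimentin or desmin.

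Nefl and Nefm need a remark before the values, since their genes overlap in GENCODE M21 on GRCm38 (mm10). Nefl (chromosome 14, plus strand) lies inside the annotated span of Nefm on the minus strand, and 1108 of the 3380 exonic bases of Nefl also lie in Nefm exons. The strand setting of the counting is not given in the sources used here, so reads from these shared bases cannot be told apart.

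The values are the authors' normalized tag counts, called values below. Within each table every library has the same highest value, so a value states a gene's place in its library more than its depth, and read depth is unknown. A call means an adjusted p below 0.05 in limma on log2(value + 2) and a difference of at least 1 on that scale. Adjustment was within each of 27 comparisons over all genes tested, 20760 in the NSC-medium table and 20468 in the parallel table. BKM_Sox2 day 24 replicate 1 correlated with its replicate at 0.0578, against 0.9495 to 0.9608 for the other pairs of its table. It was left out of the fit, which leaves 1 library in that group, and BKM_Sox17 and BKM_Sox2 at day 30 also have 1 library each. The labels were checked with marker lists. In NSCs against MEFs, 9 of 10 neural stem cell markers were called higher and 8 of 8 fibroblast markers lower. The summed fibroblast markers were 613 and 639 in NSCs, 445 to 652 in the iNSC lines and 208247 and 212647 in MEFs. They were 214654 and 220448 in BKM_FNV cells at day 30, close to MEFs. In bulk RNA, fewer cells of a type and less RNA per cell cannot be told apart.

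Primary NSCs were high in the genes known from neural stem cells. Nes, Vim, Gfap and Ina were called higher in NSCs than in MEFs, and Nefl and Des lower, which is 6 of 8 members where 34.4% of all genes were called. Nes was 9809 and 7809 in NSCs, against 1432 and 1590 in MEFs, with no overlap. The difference was 2.53 ± 0.21 on the log2 scale (SE, adjusted p = 1.6e-11). Vim was 78139 in both NSC libraries, against 34127 and 29407 in MEFs (1.30 ± 0.13, adjusted p = 1.24e-09). The value 78139 is the top of the table, so vimentin was the highest gene of those NSC libraries and could not be listed higher. Across the 53 libraries of this table Vim took 9 distinct values and ranked between 1 and 85. Its differences are therefore steps between a few top ranks, and their sizes are bounded by the normalization.

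Gfap was 64 and 101 in NSCs, against 0 and 6 in MEFs (4.37 ± 0.83, adjusted p = 4.74e-05). It stayed a low gene even there, at best 9414th in any library of the table. Of 8 astrocyte markers, 7 were also called higher in NSCs than in MEFs. Ina was 85 and 63 in NSCs, against 6 and 8 in MEFs (3.07 ± 0.56, adjusted p = 2.82e-05). Nefl went the other way: it was listed at 0 in both NSC libraries, against 86 and 84 in MEFs (adjusted p = 1.91e-10). Des was 14 and 7 in NSCs, against 333 and 318 in MEFs (fell by 4.77 ± 0.53 on the log2 scale, adjusted p = 8.32e-09). Muscle markers moved with it: their summed level was 450 and 827 in NSCs and 74508 and 74569 in MEFs, with the contractile genes Cnn1 and Acta1 listed at 0 in NSCs. Their part in the Des difference was not tested. Nefm (20 and 18 in NSCs, 6 and 20 in MEFs) and Synm (92 and 84 in NSCs, 72 and 83 in MEFs) were not called.

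The 2 iNSC lines differed in how many members set them apart from NSCs. Between iNSC_BKMF and NSCs limma called no member, where 2.02% of all genes were called. Nefl alone passed an unadjusted threshold of 0.05 in limma. It was 13 and 0 in iNSC_BKMF and 0 and 0 in NSCs (adjusted p = 0.0907). Without iNSC_BKMF replicate 2 it was called (adjusted p = 1.4e-05), since that replicate is the one at 0. Nes was 6754 and 6372 in iNSC_BKMF and 9809 and 7809 in NSCs, and Vim was 78139 in all 4 libraries.

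Between iNSC_KF and NSCs 4 of 8 members were called, where 8.88% of all genes were called. Vim was 29407 and 23868 in iNSC_KF, against 78139 in both NSC libraries (fell by 1.56 ± 0.13, adjusted p = 4.56e-10). MEFs had 34127 and 29407. The summed fibroblast markers were 463 and 594 in iNSC_KF and 613 and 639 in NSCs. Ina was 787 and 647 in iNSC_KF, against 85 and 63 in NSCs (3.25 ± 0.56, adjusted p = 6.61e-05). Nefl was 32 and 37 in iNSC_KF, and listed at 0 in both NSC libraries (adjusted p = 2.67e-07). The neuron markers Elavl3, Syt1 and Tubb3 were also higher in iNSC_KF, by 3.63, 3.13 and 2.75 on the log2 scale. These were picked as the largest called differences of the neuron marker list, whose other genes are not described here. The part of neuron markers in the Ina and Nefl differences was not tested. Synm was 148 and 445 in iNSC_KF, against 92 and 84 in NSCs (1.53 ± 0.28, adjusted p = 0.000123). The Synm call rests on replicate 2: without it the difference was 0.74 (adjusted p = 0.0179) and under the fold threshold. It was also lost with only the groups compared (adjusted p = 0.258) and with the left-out library in the fit (adjusted p = 0.224). Nefm, at 3 and 12 in iNSC_KF with 20 and 18 in NSCs, was called lower only without that same replicate (fell by 2.07, adjusted p = 0.0135). Nes reached its highest values of the table here, at 9479 and 13468 in iNSC_KF and 9809 and 7809 in NSCs, overlapping and not called.

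**Figure D1:**
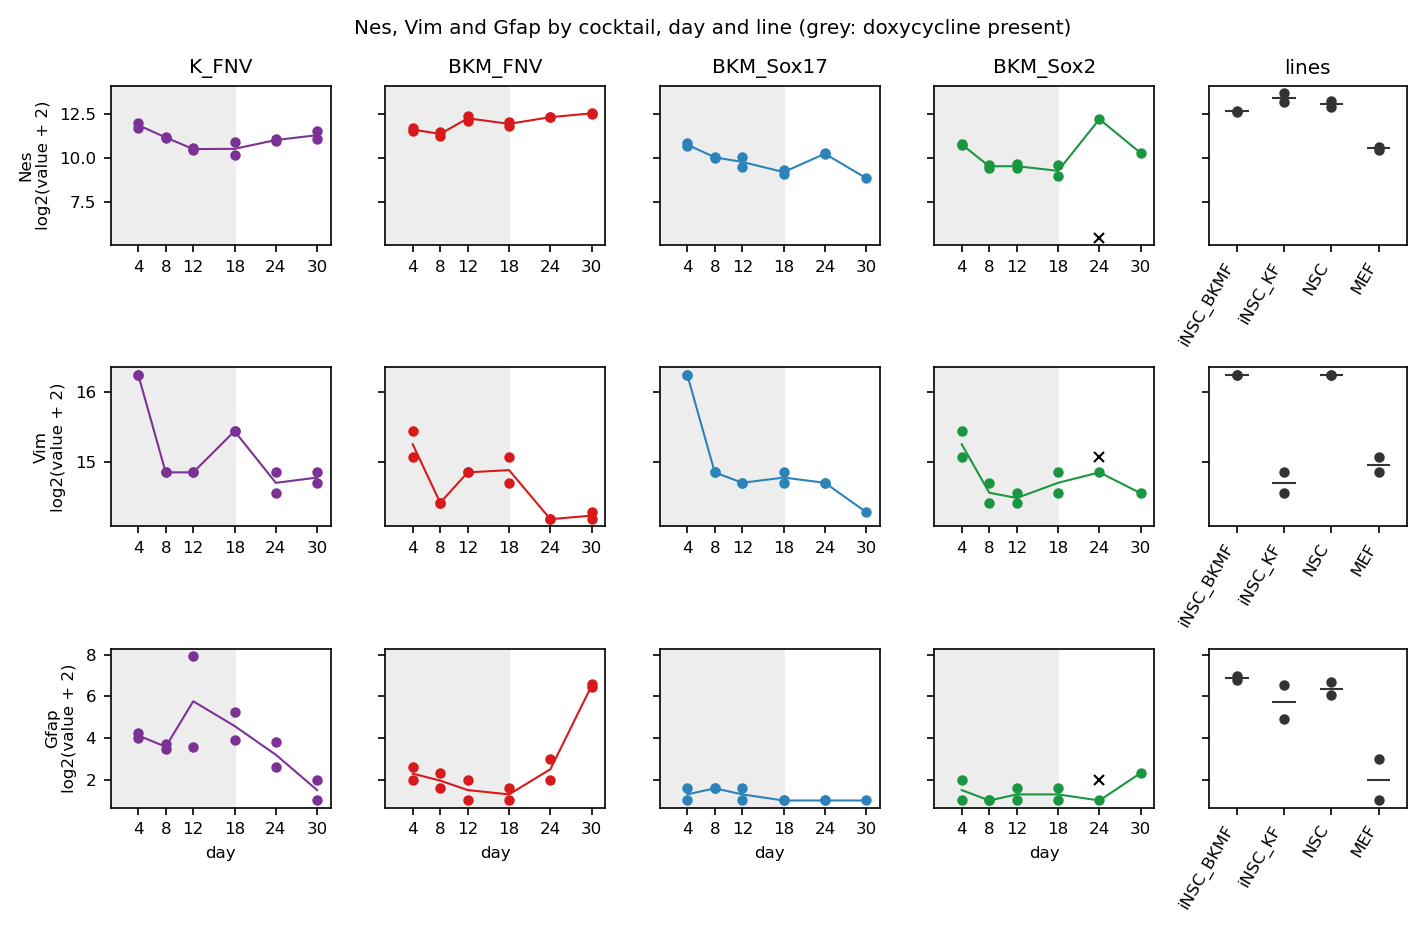
Nes, Vim and Gfap as log2(value + 2) in each library (points) of the NSC-medium table, by day for each cocktail and by line on the right; lines and bars join or mark means, grey marks Dox, and the cross is the library left out. Nes stays high in BKM_FNV cells throughout, Vim sits at its ceiling in NSCs, iNSC_BKMF and the day 4 cells of K_FNV and BKM_Sox17, and Gfap is 86 and 93 in BKM_FNV cells at day 30.

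Desmin was lower and Nefl higher than in MEFs on the first day sampled. At day 4, over all 4 cocktails, 3 members were called against MEFs (Nefl higher, Ina and Des lower), where 18.1% of all genes were called. Des ranged from 13 to 55 over the 8 day 4 libraries, against 333 and 318 in MEFs (fell by 3.48 ± 0.42, adjusted p = 7.95e-08). It did not come back above 139 in any later library of this table. Muscle markers were lower too, with a summed level of 1864 to 13164 at day 4 and 74508 and 74569 in MEFs, and their part was not tested. Nefl ranged from 244 to 494 at day 4, against 86 and 84 in MEFs (1.94 ± 0.40, adjusted p = 0.000154). Ina ranged from 0 to 4 at day 4, against 6 and 8 in MEFs (fell by 1.33 ± 0.45). These Ina levels are near the bottom of the table, and the call was lost without MEF replicate 1 or 2 (adjusted p = 0.052 and 0.131). With a pseudocount of 8 the difference was -0.63 and under the fold threshold. Nes ranged from 1632 to 4178 at day 4 and was 1432 and 1590 in MEFs, a difference of 0.71 ± 0.16 that was under the fold threshold. With the left-out library in the fit, the Ina and Nefl calls at day 4 ended (adjusted p = 0.175 and 0.0951).

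While the factors were on, Nes was the member that separated the eSox17FNV cocktail from its Sox17 and Sox2 counterparts. Over the 4 Dox days together it was the only member called in BKM_FNV against BKM_Sox17 cells, where 3.72% of all genes were called, and in BKM_FNV against BKM_Sox2 cells, where 6.18% were called. In BKM_FNV cells the lowest, median and highest Nes values over 8 libraries were 2478, 3566 and 5450, against 543, 1048 and 1861 in BKM_Sox17 cells. The corresponding values in BKM_Sox2 cells were 493, 770 and 1762. The lowest BKM_FNV library lay above the highest library of either other cocktail. The difference was 1.87 ± 0.10 against BKM_Sox17 (adjusted p = 1.51e-13) and 2.04 ± 0.10 against BKM_Sox2 (adjusted p = 1.03e-14). The 2 comparisons share the BKM_FNV libraries.

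The neural stem cell markers were low at this stage. Their summed level was 728 to 3920 in BKM_FNV cells on Dox, 353 to 2148 in BKM_Sox17 cells and 410 to 3650 in BKM_Sox2 cells, with Hes5 listed at 0 in all 3 cocktails at every Dox day. NSCs had 110812 and 113557. Pluripotency markers were higher too over the Dox days together, with 6 of 7 called higher in BKM_FNV than in BKM_Sox17 cells and 7 of 7 higher than in BKM_Sox2 cells. By day they did not all follow Nes. In BKM_FNV cells Pou5f1 averaged 5.5 at day 4 and 857 at day 8. Nes was 2972 and 3416 at day 4 and 2478 and 2863 at day 8. The part of the pluripotency markers in the Nes difference was not tested. Between BKM_Sox17 and BKM_Sox2 cells on Dox limma called no member, where 3.98% of all genes were called. At an unadjusted p below 0.05, Vim, Nefm, Synm and Des differed. Nefm came nearest to a call, at 0 to 15 in BKM_Sox17 cells and 1 to 46 in BKM_Sox2 cells (fell by 0.90 ± 0.26, adjusted p = 0.0108).

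The courses from day 4 to day 18 differed for Nes. Nes was 3716 and 4278 at day 18 in BKM_FNV cells, against 3416 and 2972 at day 4, and was not called (0.32 ± 0.21, adjusted p = 0.226). In BKM_Sox17 cells Nes was 628 and 543 at day 18, against 1861 and 1632 at day 4 (fell by 1.57 ± 0.21, adjusted p = 3.85e-07). In BKM_Sox2 cells Nes was 493 and 764 at day 18, against 1749 and 1762 at day 4 (fell by 1.51 ± 0.21, adjusted p = 9.18e-07). In K_FNV cells Nes was 1904 and 1145 at day 18, against 4178 and 3436 at day 4 (fell by 1.36 ± 0.21, adjusted p = 1.02e-05). Without K_FNV day 18 replicate 2 that last difference was -0.99 and under the fold threshold, and with only the groups compared in the fit its call was lost (adjusted p = 0.0631). With the left-out BKM_Sox2 library in the fit, all 3 Nes calls were lost (adjusted p = 0.441 in BKM_Sox17, 0.511 in BKM_Sox2 and 0.767 in K_FNV cells). The share of all genes called between day 18 and day 4 was 22.9% in BKM_FNV, 19% in BKM_Sox17, 17% in BKM_Sox2 and 10.4% in K_FNV cells.

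Tested directly, the Nes change of BKM_FNV cells exceeded that of BKM_Sox17 cells by 1.90 ± 0.29 (adjusted p = 0.000286, where 2.14% of all genes were called). It exceeded that of BKM_Sox2 cells by 1.84 ± 0.29 (adjusted p = 0.000107, where 7.28% were called). The change of K_FNV cells minus that of BKM_FNV cells was -1.68 ± 0.29 (adjusted p = 6.67e-05, where 14.7% were called). All 3 tests share the BKM_FNV libraries. With the left-out BKM_Sox2 library back in the fit, all 3 lost their calls (adjusted p = 1, 1 and 0.931). Vim also differed between the BKM_FNV and BKM_Sox17 courses, by 1.11 ± 0.19 (adjusted p = 0.000611). It was 34127 and 26500 at day 18 and 34127 and 44402 at day 4 in BKM_FNV cells, and 29407 and 26500 at day 18 and 78139 at day 4 in both BKM_Sox17 libraries. The Vim difference went under the fold threshold without BKM_FNV day 18 replicate 1 (0.93) or day 4 replicate 1 (0.92), and its call was lost with only the groups compared (adjusted p = 0.0602).

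The neurofilament genes fell in all 4 cocktails over the same days. Nefl was called lower at day 18 than at day 4 in each: 68 and 65 against 362 and 359 in BKM_FNV cells (fell by 2.40 ± 0.50, adjusted p = 0.000208). It was 75 and 38 at day 18 against 244 and 324 at day 4 in BKM_Sox17 cells (fell by 2.35 ± 0.50, adjusted p = 0.000313). It was 153 and 83 at day 18 against 294 and 494 at day 4 in BKM_Sox2 cells (fell by 1.74 ± 0.50, adjusted p = 0.00604). It was 61 and 65 at day 18 against 302 and 328 at day 4 in K_FNV cells (fell by 2.29 ± 0.50, adjusted p = 0.000813). MEFs had 86 and 84. The BKM_Sox2 call was lost without day 18 replicate 2 (adjusted p = 0.106) or day 4 replicate 2 (adjusted p = 0.094), and with only the groups compared in the fit (adjusted p = 0.0646). With the left-out library in the fit, the Nefl call was lost in all 4 (adjusted p = 0.115 in BKM_FNV, 0.143 in BKM_Sox17, 0.408 in BKM_Sox2 and 0.252 in K_FNV cells). Nefm was called lower in all 4 as well, from low levels: it was 0 to 7 over the 8 day 18 libraries and 14 to 46 over the 8 day 4 libraries. In BKM_FNV cells the Nefm call was lost without day 18 replicate 2 (adjusted p = 0.0583). With the left-out library in the fit it was lost in BKM_FNV and K_FNV cells (adjusted p = 0.277 and 0.234). Neuron markers were not uniform: 5 of 8 were called lower in K_FNV cells, 3 of 8 lower and 1 higher in BKM_Sox17, 2 lower and 1 higher in BKM_Sox2, and 2 lower in BKM_FNV cells. Des was called higher at day 18 in BKM_Sox17 cells alone, at 63 and 24 against 13 and 16 at day 4 (1.32 ± 0.53, adjusted p = 0.0461). That call was lost without day 18 replicate 1 (adjusted p = 0.476) or either day 4 library (adjusted p = 0.178 and 0.0899). It was also lost with a pseudocount of 1 (0.0505), with only the groups compared (0.13) and with the left-out library in the fit (0.375).

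Gfap was called higher in the 2-factor cocktail on Dox, from low levels. It was the only member called in K_FNV against BKM_FNV cells, where 14.5% of all genes were called. The lowest, median and highest values were 9, 13.5 and 244 in K_FNV cells, against 0, 1.5 and 4 in BKM_FNV cells, so the groups did not overlap (2.75 ± 0.42, adjusted p = 1.88e-06). The 244 is 1 library, day 12 replicate 1, whose replicate had 10. The other K_FNV values on Dox were at most 36, low levels at which the size of the difference depends on the added 2. Of 8 astrocyte markers 4 were called higher in K_FNV cells and 1 lower. The endothelial genes Cdh5 and Kdr were also higher, by 3.07 and 2.42, and Kdr averaged 382.5 in MEFs and 361 in K_FNV cells at day 4. The endothelial list was not uniform. Tek averaged higher in K_FNV cells on each Dox day, but Tie1 only on days 4 and 18. Pecam1 averaged 62.5, 59.5, 51.5 and 68.5 in K_FNV cells on days 4, 8, 12 and 18. In BKM_FNV cells it averaged 29, 61, 62.5 and 69.5. Summed astrocyte markers were 4395 to 11382 in K_FNV cells and 3452 to 11807 in BKM_FNV cells, and their part in the Gfap difference was not tested. Nes was 1145 to 4178 in K_FNV cells and 2478 to 5450 in BKM_FNV cells, a difference of -0.79 ± 0.10 (adjusted p = 2.05e-07) that was under the fold threshold.

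After Dox was withdrawn, Ina, Nefl, Nefm, Nes and Gfap were called higher in BKM_FNV cells than in BKM_Sox17 and BKM_Sox2 cells, and lower in K_FNV than in BKM_FNV cells. Des was also called against BKM_Sox17 and K_FNV cells. The description labels of this experiment name days 4 to 18 in one form and days 24 and 30 in another, unlike those of the parallel experiment, so values across that boundary are given side by side and were not tested. Ina was 494 and 446 at day 24 and 1471 and 1336 at day 30 in BKM_FNV cells. It had been 0 to 4 in all 8 BKM_FNV libraries on Dox. In BKM_Sox17 cells after Dox it was 2 in each of 3 libraries (7.67 ± 0.45 higher in BKM_FNV, adjusted p = 6.56e-14). In BKM_Sox2 cells after Dox it was 26 at day 24 and 0 at day 30 (6.76 ± 0.49 higher in BKM_FNV, adjusted p = 1.05e-11). In K_FNV cells after Dox it was 31, 2, 4 and 0 (-7.01 ± 0.40 against BKM_FNV, adjusted p = 1.27e-14). The 4 BKM_FNV libraries stood above every library of the other 3 cocktails. Of all genes, 17.8% were called against BKM_Sox17, 15.1% against BKM_Sox2, and 21.7% between K_FNV and BKM_FNV.

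Nefl was 922 and 990 at day 24 and 2004 and 1983 at day 30 in BKM_FNV cells, the 4 highest values of the table. It was 226, 234 and 243 in BKM_Sox17 cells (2.54 ± 0.40 higher in BKM_FNV, adjusted p = 5.45e-06). It was 136 and 84 in BKM_Sox2 cells (3.67 ± 0.44 higher in BKM_FNV, adjusted p = 1.02e-07). It was 83, 52, 259 and 140 in K_FNV cells (-3.60 ± 0.36 against BKM_FNV, adjusted p = 1.07e-09). Nefm followed with 291 and 327 at day 24 and 1086 and 978 at day 30 in BKM_FNV cells. Nefm was 16, 20 and 13 in BKM_Sox17 cells (5.03 ± 0.41 higher in BKM_FNV, adjusted p = 4.62e-11) and 78 and 19 in BKM_Sox2 cells (3.79 ± 0.45 higher, adjusted p = 8.79e-08). It was 25, 18, 117 and 34 in K_FNV cells (-3.86 ± 0.36 against BKM_FNV, adjusted p = 4.37e-10). No library of another cocktail reached the lowest BKM_FNV library for either gene. Reads from the 32.8% of Nefl exonic bases that also lie in Nefm exons cannot be told apart.

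Other neuronal genes were higher in BKM_FNV cells too. Of 8 neuron markers 4 were called higher and 1 lower against BKM_Sox17 cells, and 5 higher against BKM_Sox2 cells, and 6 were called lower in K_FNV than in BKM_FNV cells. Elavl3, a neuronal RNA-binding protein, averaged 554.25 in BKM_FNV cells and 28.25 in BKM_Sox17 cells. Dcx, a microtubule protein of young neurons, averaged 2842 in BKM_FNV cells and 388.25 in BKM_Sox17 cells. The summed neuron markers did not follow the same order, at 6108 to 6219 (day 24) and 14570 to 15448 (day 30) in BKM_FNV cells and 7036 to 8996 in BKM_Sox17 cells after Dox. Their part in the filament differences was not tested.

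**Figure D2:**
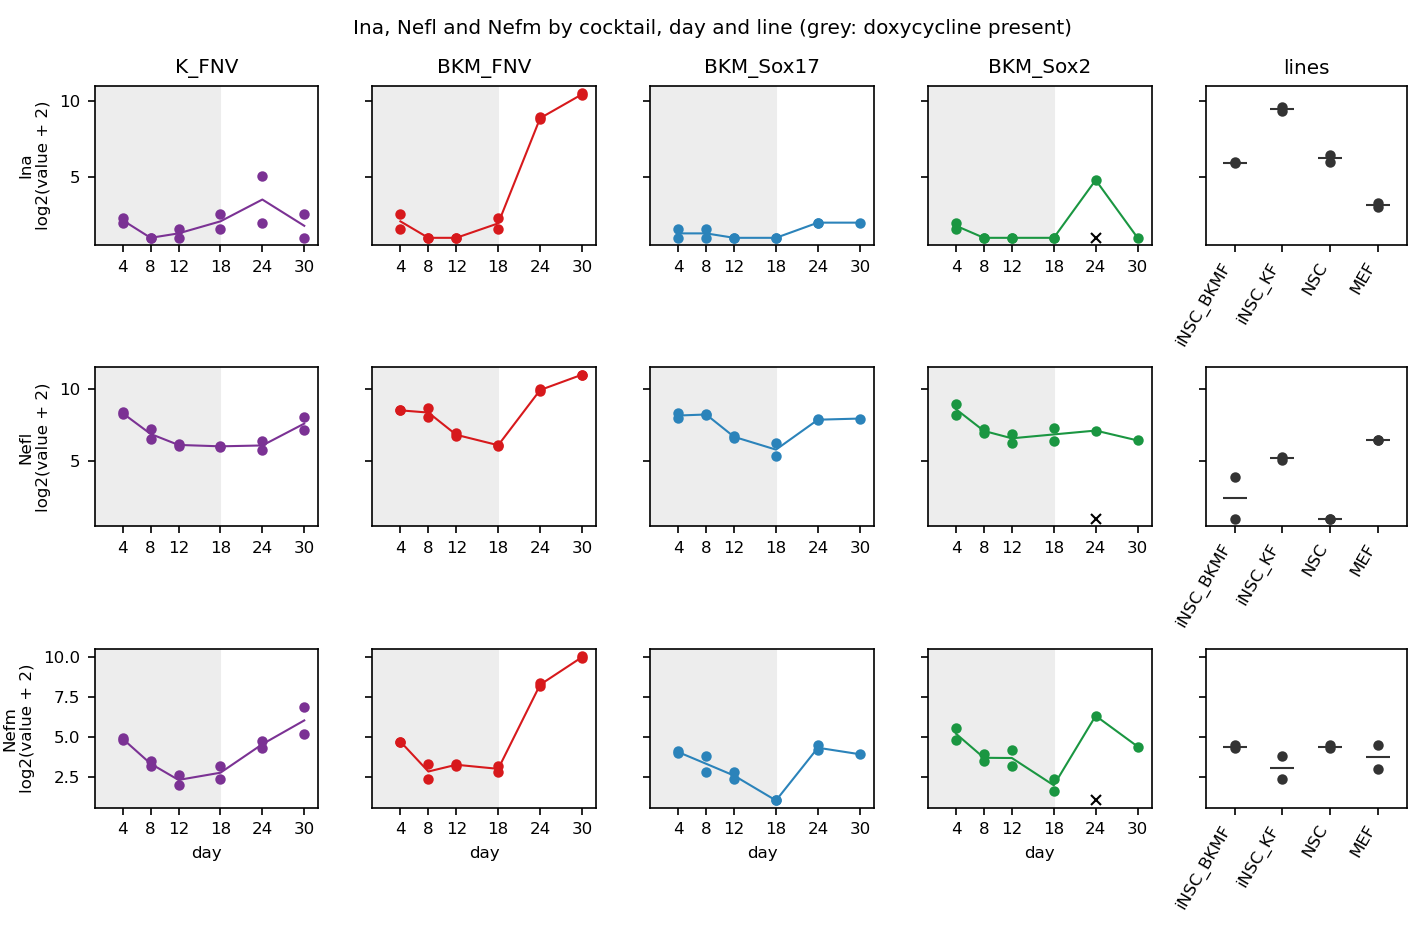
Ina, Nefl and Nefm as log2(value + 2) in each library (points) of the NSC-medium table, by day and cocktail with the lines on the right; lines and bars join or mark means, grey marks Dox, and the cross is the library left out. All 3 are highest in the BKM_FNV libraries at day 30, where Ina is 1471 and 1336, Nefl 2004 and 1983, and Nefm 1086 and 978.

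Nes stayed high after Dox in BKM_FNV cells, at 5165 and 5241 on day 24 and 6162 and 5961 on day 30. It was 1195, 1235 and 458 in BKM_Sox17 cells (2.91 ± 0.16 higher in BKM_FNV, adjusted p = 3.64e-14). It was 2052, 2143, 2180 and 2955 in K_FNV cells (-1.28 ± 0.15 against BKM_FNV, adjusted p = 1.76e-08), a call lost with the left-out library in the fit (adjusted p = 0.218). Against BKM_Sox2 cells the 2 days did not go together. Nes was 4810 at day 24, close to BKM_FNV, and 1245 at day 30 (1.20 ± 0.18 higher in BKM_FNV, adjusted p = 4.43e-06). Without the day 30 library the difference was 0.11 (adjusted p = 0.844), so that call rests on 1 library. The summed neural stem cell markers were 5841 to 14972 in BKM_FNV cells after Dox, 558 to 715 in BKM_Sox17, 802 and 1591 in BKM_Sox2 and 354 to 665 in K_FNV cells, and their part was not tested.

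Gfap came last. It was 2 and 6 at day 24 and 86 and 93 at day 30 in BKM_FNV cells. It was listed at 0 in all 3 BKM_Sox17 libraries (adjusted p = 6.25e-05), and was 0 and 3 in BKM_Sox2 cells (2.85 ± 0.72, adjusted p = 0.00183). In K_FNV cells it was 12, 4, 0 and 2, overlapping the day 24 values of BKM_FNV cells (fell by 2.16 ± 0.59 in K_FNV, adjusted p = 0.00271). The calls against BKM_Sox17 and BKM_Sox2 were lost without the single day 30 library of each (adjusted p = 0.174 and 0.329). The astrocyte water channel Aqp4 was 0 in all BKM_Sox17 libraries after Dox and averaged 79.25 in BKM_FNV cells. Of 8 astrocyte markers 5 were called higher in BKM_FNV than in BKM_Sox17 cells, and 4 higher than in BKM_Sox2 cells. The summed astrocyte markers were 8079 to 16088 in BKM_FNV cells and 7268 to 9190 in BKM_Sox17 cells, and their part was not tested.

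The cultures also differed in what was left of the factors. After Dox, Sox17 (delivered or the cell's own, which cannot be told apart) was 30 to 167 in BKM_FNV cells, 1621 to 2408 in BKM_Sox17 cells and 167 to 7284 in K_FNV cells, and listed at 0 in BKM_Sox2 cells. The genes of the other factors were higher in BKM_Sox17 than in BKM_FNV cells too, by their means at days 24 and 30. Brn4 (Pou3f4) was 5972 and 8134 in BKM_Sox17 cells, against 224 and 509.5 in BKM_FNV cells. Klf4 was 2678 and 2863, against 621.5 and 37, and Myc was 3025 and 3435, against 399.5 and 575.5. BKM_Sox2 cells had 754 and 408 for Brn4, 771 and 494 for Klf4 and 425 and 260 for Myc. Klf4 was 2370 and 674.5 in K_FNV cells. The part of these genes in the filament differences was not tested.

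**Figure D3:**
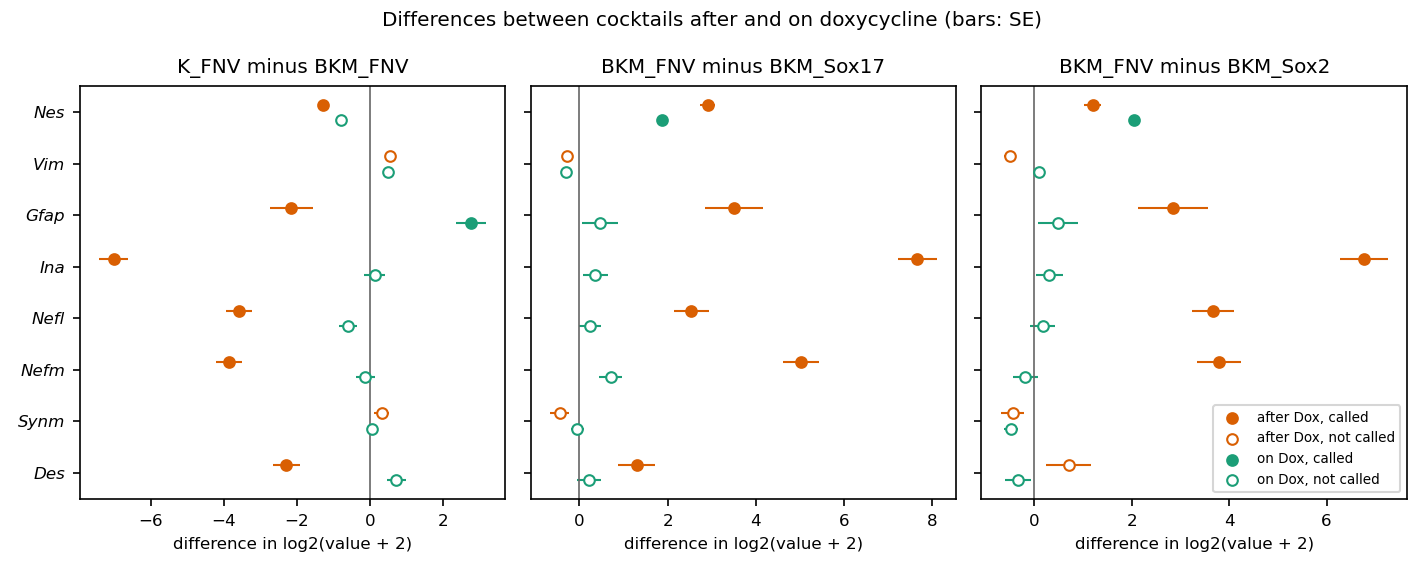
Difference on the log2(value + 2) scale for each of the 8 genes between cocktails, with SE bars, on Dox (green) and after Dox (orange); filled points were called and open points were not. Nes is the only called member in BKM_FNV against BKM_Sox17 and BKM_Sox2 cells on Dox, and Ina, Nefl and Nefm stand out after Dox. Gfap is drawn against a BKM_Sox17 group listed at 0, so that point depends on the added 2.

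Des differed between cocktails after Dox from low levels, while Synm was not called. Des was 20 and 31 at day 24 and 39 and 44 at day 30 in BKM_FNV cells. It was 10, 12 and 13 in BKM_Sox17 cells (1.29 ± 0.42 higher in BKM_FNV, adjusted p = 0.0116), a call that was lost without the day 30 library (adjusted p = 0.131) and with the left-out BKM_Sox2 library in the fit (adjusted p = 0.168). In K_FNV cells it was 3, 3, 6 and 10 (-2.29 ± 0.38 against BKM_FNV, adjusted p = 7.64e-06). All these values are far under the 333 and 318 of MEFs. Of 8 muscle markers 5 were called higher and 1 lower in BKM_FNV against BKM_Sox17 cells, and 1 higher and 3 lower in K_FNV against BKM_FNV cells. Synm was not called in any comparison of cocktails. It ranged from 52 to 187 over the cocktail libraries.

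**Figure D4:**
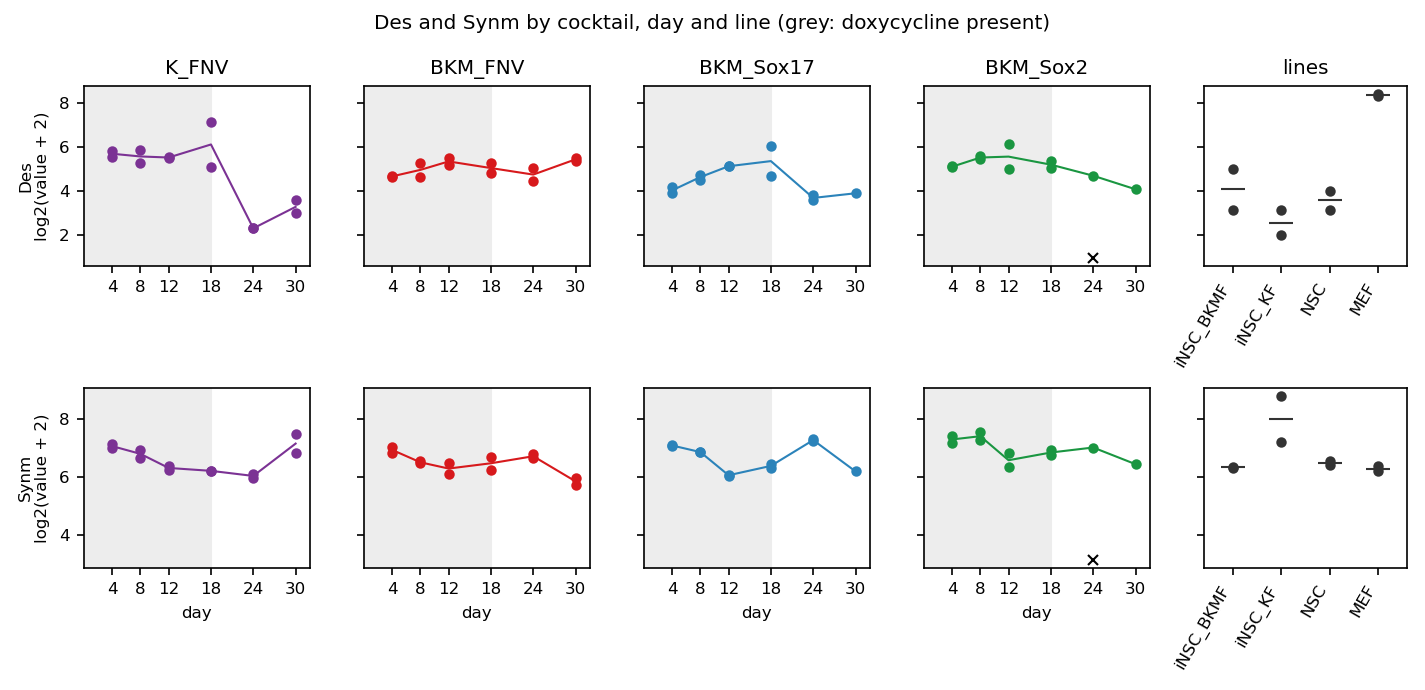
Des and Synm as log2(value + 2) in each library (points) of the NSC-medium table, by day and cocktail with the lines on the right; lines and bars join or mark means, grey marks Dox, and the cross is the library left out. Des is 333 and 318 in MEFs and at most 139 elsewhere, while Synm leaves the range of 52 to 187 in iNSC_KF replicate 2, at 445, and in the library left out, at 7.

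Against primary NSCs, BKM_FNV cells at day 30 were higher in the 3 neuronal members and in Des and lower in Vim. In this comparison 5 of 8 members were called, where 28.2% of all genes were called. Ina was 1471 and 1336 in BKM_FNV cells at day 30, against 85 and 63 in NSCs (4.22 ± 0.56, adjusted p = 3e-07). Nefl was 2004 and 1983, and listed at 0 in both NSC libraries (adjusted p = 6.07e-16). Nefm was 1086 and 978, against 20 and 18 in NSCs (5.62 ± 0.52, adjusted p = 2.8e-10). Vim was 18425 and 19766, against 78139 in both NSC libraries (fell by 2.03 ± 0.13, adjusted p = 1.82e-13). Gfap was 86 and 93 in BKM_FNV cells and 64 and 101 in NSCs, overlapping and not called (0.15 ± 0.83, an interval too wide to call them alike). Nes was 6162 and 5961 in BKM_FNV cells and 9809 and 7809 in NSCs (fell by 0.53 ± 0.21, adjusted p = 0.0309, under the fold threshold). Des was 39 and 44 in BKM_FNV cells and 14 and 7 in NSCs (1.86 ± 0.53, adjusted p = 0.00396), a call lost without NSC replicate 2 (adjusted p = 0.0683) and with the left-out library in the fit (adjusted p = 0.0774). Of 8 neuron markers 7 were called higher and 1 lower, and of 10 neural stem cell markers 1 higher and 6 lower. Of 8 fibroblast markers all were called higher in BKM_FNV cells, and their part in the Vim and Des differences was not tested.

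In the parallel experiment, synemin was the member called higher at day 4 than in MEFs. The MEF reference was Sox2-GFP MEFs, while the day 4 cells came from Nanog-CreER/Rosa26-tdTomato/Sox2-GFP MEFs. Genotype, medium and factors therefore cannot be told apart in that comparison. At day 4 in N2B27 medium 3 members were called against MEFs, where 18.4% of all genes were called. Synm was 284 and 264 in N2B27 cells, against 82 and 93 in MEFs (1.63 ± 0.17, adjusted p = 3.39e-06), and it was 265 and 292 at day 8. In NSC medium with Dox it was 66 to 78. Des was 93 and 63 at day 4, against 338 and 324 in MEFs (fell by 2.08 ± 0.56, adjusted p = 0.00794), a call lost without day 4 replicate 2 (adjusted p = 0.0647). Ina was 1 and 2 at day 4 against 8 and 11 in MEFs, with adjusted p = 0.0498, and the call was lost without any 1 of the 4 libraries (adjusted p from 0.0945 to 0.193). It was also lost with no filter (0.05), rescaled libraries (0.0543), no trend (0.0511), the replicate block (0.0683) and a pseudocount of 8 (0.285). Nes was 1411 and 1398 at day 4 and 1333 and 1488 in MEFs, and was not called. Between day 8 and day 4 limma called no member, where 4.71% of all genes were called. At an unadjusted p below 0.05, Nes was higher at day 8 (2112 and 2064, against 1411 and 1398 at day 4) and Des lower (29 and 17, against 93 and 63).

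After Dox, Nes and Vim were lower in LIF/2i medium than in NSC medium. While Dox was on, Ina was the only member called between LIF/2i and NSC medium, where 15.5% of all genes were called. It was 8 to 15 in LIF/2i medium and 0 to 11 in NSC medium (1.31 ± 0.46, adjusted p = 0.0314). These levels overlap, and the call was lost when any of 7 of the 8 libraries was left out (adjusted p from 0.0599 to 0.0783). The exception was LIF/2i day 16 replicate 1. A pseudocount of 8 also ended it (adjusted p = 0.26). After Dox 5 members were called, where 24.5% of all genes were called. Nes was 473, 407, 366 and 390 in LIF/2i medium, against 983, 947, 2766 and 2403 in NSC medium (fell by 1.95 ± 0.09, adjusted p = 1.6e-10). Vim was 11669, 17710, 7352 and 7920 in LIF/2i medium, against 34147, 30887, 19620 and 21964 in NSC medium (fell by 1.31 ± 0.14, adjusted p = 8.22e-07). For both genes every LIF/2i library lay below every NSC-medium library.

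Desmin went the opposite way. It was 275, 146, 141 and 133 in LIF/2i medium after Dox, against 30, 54, 25 and 47 in NSC medium, with no overlap (2.10 ± 0.39, adjusted p = 0.000307). Muscle markers did not go with it: none of 9 was called higher in LIF/2i medium and 3 were called lower. Their summed level was 728 to 5202 in LIF/2i medium and 1491 to 9809 in NSC medium. Pluripotency markers, which LIF/2i medium favours, summed to 57587 to 85819 in LIF/2i medium and 2901 to 6874 in NSC medium, and their part in these differences was not tested.

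The neuronal filament genes were called higher after Dox than on Dox in both media. Dox was on at days 12 and 16 and off at days 20 and 24, so withdrawal and time cannot be told apart. The same holds for the changes after Dox compared between media below. In NSC medium Ina was 19, 57, 1359 and 197 after Dox (days 20 and 24), against 11, 11, 0 and 0 on Dox (4.73 ± 0.46, adjusted p = 7.19e-07, where 20.5% of all genes were called). In LIF/2i medium Ina was 112, 56, 30 and 21 after Dox, against 8, 8, 13 and 15 on Dox (1.89 ± 0.46, adjusted p = 0.00426, where 11.6% were called). Nefm was 10, 26, 976 and 129 after Dox in NSC medium, against 9, 8, 2 and 4 on Dox (3.50 ± 0.51, adjusted p = 3.54e-05). In LIF/2i medium Nefm was 389, 241, 153 and 243 after Dox, against 18, 19, 9 and 14 on Dox (3.89 ± 0.51, adjusted p = 3.22e-05). The 2 day 24 libraries of NSC medium differ widely, with Ina at 1359 and 197, Nefl at 1038 and 366 and Nefm at 976 and 129. Over the same 2 libraries the summed neuron markers ranged from 4207 to 11183, and their part in the gap was not tested. Nefl was called higher after Dox in both media (1.26 ± 0.49, adjusted p = 0.0413 in NSC medium, and 1.47 ± 0.49, adjusted p = 0.0268 in LIF/2i medium). On Dox in NSC medium Nefl was 176 and 213 at day 12 and 44 and 59 at day 16. After Dox it was 69 and 127 at day 20, below day 12, and 366 and 1038 at day 24, so the values overlap. In LIF/2i medium Nefl was 120 to 156 on Dox and 326 to 430 after Dox. The NSC-medium call was lost in 6 of the 8 leave-outs, up to an adjusted p of 0.179 without day 24 replicate 1, and the LIF/2i call in 7 of 8, up to 0.0777 without day 24 replicate 2. A pseudocount of 1 ended both (adjusted p = 0.0864 in NSC medium and 0.0612 in LIF/2i medium), and the replicate block ended the NSC-medium call (0.0532).

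Between media after Dox, Ina was called lower in LIF/2i medium (-1.53 ± 0.46, adjusted p = 0.0107) on overlapping values, and that call was lost without NSC medium day 20 replicate 2 (adjusted p = 0.0586) or day 24 replicate 1, where it was -0.83 and under the fold threshold. Nefm was called higher in LIF/2i medium on the log scale (1.60 ± 0.51, adjusted p = 0.015) although its mean was 256.5 in LIF/2i medium and 285.25 in NSC medium, with 976 in 1 NSC-medium library. That call was lost in 4 of the 8 leave-outs: LIF/2i day 20 replicate 1 (adjusted p = 0.0549) and day 24 replicate 2 (0.0536), and NSC medium day 20 replicate 1 (0.0705) and day 24 replicate 2 (0.0805). With only the groups compared, both the Ina and the Nefm call were lost (adjusted p = 0.112 and 0.0966). Tested directly, the change after Dox differed between media for Nes (-1.66 ± 0.13 for LIF/2i minus NSC medium, adjusted p = 4.39e-07), Ina (-2.84 ± 0.65, adjusted p = 0.00361) and Des (2.82 ± 0.56, adjusted p = 0.0013), where 13.9% of all genes were called. Against primary NSCs, cells in NSC medium after Dox had lower Nes (983, 947, 2766 and 2403, against 10290 and 7922 in NSCs), lower Vim and lower Gfap, and higher Nefl, Nefm and Des, where 34.9% of all genes were called. Nes fell by 2.52 ± 0.11 (adjusted p = 2.13e-11). Gfap was 4, 5, 6 and 2, against 74 and 110 in NSCs (fell by 3.93 ± 0.64, adjusted p = 6.96e-05). The Nefm and Des calls of that comparison (adjusted p = 0.0298 and 0.0241) were lost in several leave-outs. For Nefm these were NSC medium day 20 replicate 2 (adjusted p = 0.0924) and day 24 replicate 1 (0.1) and either NSC library (0.102 and 0.114), and the call was also lost with only the groups compared (0.172). For Des they were NSC medium day 20 replicate 2 (0.0727), day 24 replicate 2 (0.0745) and NSC replicate 2 (0.208).

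**Figure D5:**
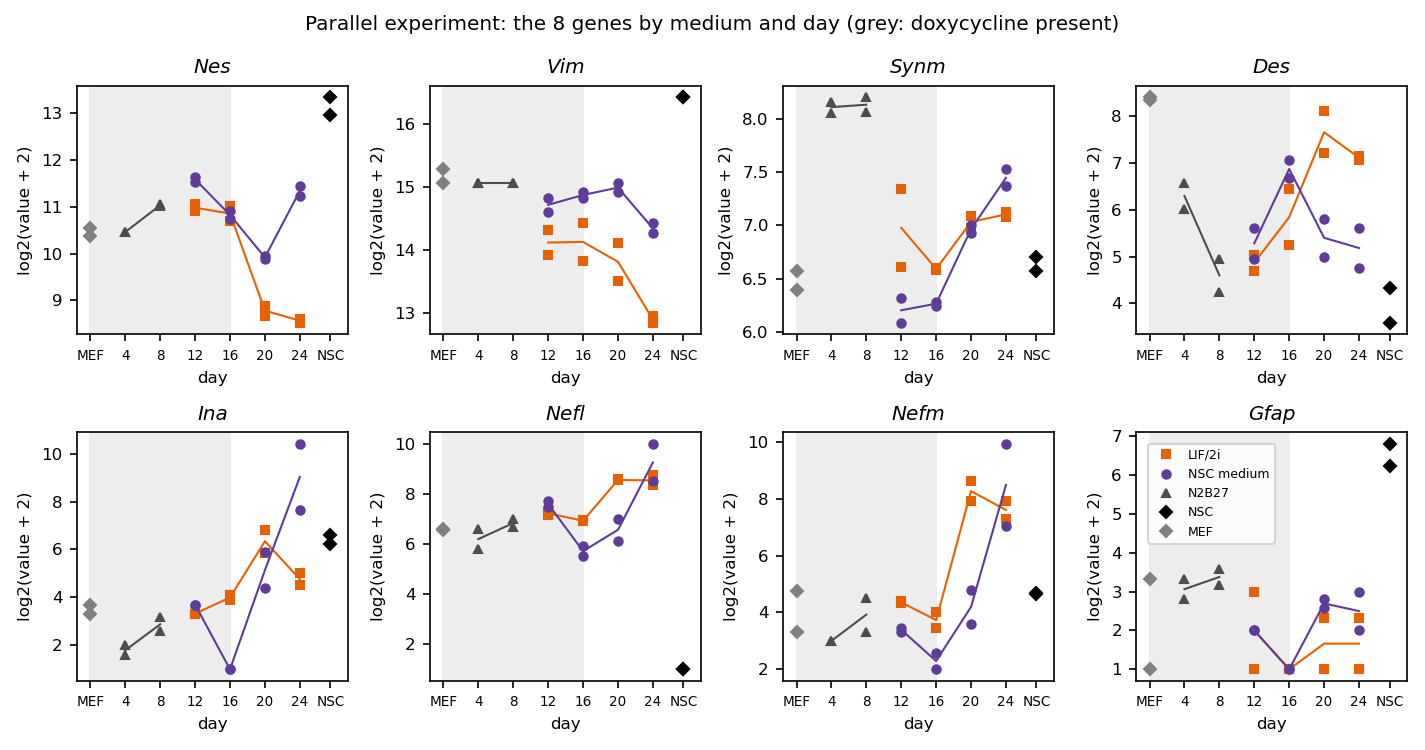
The 8 genes as log2(value + 2) in each library of the parallel table, by day, for N2B27 (triangles), LIF/2i (orange squares) and NSC medium (violet circles), with NSC and MEF libraries as diamonds. After Dox (days 20 and 24) Nes and Vim are lower and Des is higher in LIF/2i than in NSC medium in every library.

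Other filament genes moved in their own ways. Of the other cytoplasmic genes of the class on the list, 2 were called higher and 2 lower of 5 tested in NSCs against MEFs. The lens filament gene Bfsp2 averaged 170.0 in NSCs and 1.5 in MEFs, and Iffo2 averaged 148.5 in NSCs and 1537.5 in MEFs. The heavy neurofilament gene Nefh, the usual partner of Nefl and Nefm, did not go with them in BKM_FNV cells after Dox. It averaged 4.25 in BKM_FNV cells and 17.25 in BKM_Sox17 cells (fell by 1.86, adjusted p = 1.45e-05), levels near the bottom of the table. In LIF/2i medium after Dox Nefh averaged 76.75, against 6.5 in NSC medium (3.30, adjusted p = 3.99e-07). Within LIF/2i medium it averaged 13.5 and 16 on Dox (days 12 and 16) and 51 and 102.5 after Dox (days 20 and 24). Nefl and Nefm were higher after Dox there too. Of the 3 nuclear lamins, Lmna fell in NSCs (227 in NSCs and 15011 in MEFs, a difference of -6.04) and Lmnb1 was higher (5293 in NSCs and 1775 in MEFs, a difference of 1.57). BKM_FNV cells after Dox showed the same directions against BKM_Sox17 cells, with Lmna averaging 3653.5 in BKM_FNV and 6908 in BKM_Sox17 cells, and Lmnb1 averaging 3968 in BKM_FNV and 946.5 in BKM_Sox17 cells. Of 10 linkers and chaperones 4 were called lower and 1 higher in NSCs against MEFs. Plectin (Plec), which ties filaments to other structures, averaged 71 in NSCs and 20744 in MEFs (a difference of -8.18), and the small heat shock gene Hspb1 was listed at 0 in NSCs and averaged 4040 in MEFs.

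Over the 28 group means of the NSC-medium table, Nes, Ina and Gfap went together, Nefm went with Ina, and the 8 members did not all go together. The correlation was 0.71 for Nes and Ina, 0.66 for Ina and Nefm, 0.62 for Gfap and Ina and 0.61 for Nes and Gfap, and only 0.47 for Nefl and Nefm. Nes and Nefl had -0.19. These 28 points share cultures and normalization and carry no test. Among 15975 genes, the patterns most like Nes were Hap1 (0.885), Nap1l2 (0.874) and Metrn (0.869). Those most like Gfap were Ednrb (0.904), Hsf2 (0.903) and Slc1a2 (0.894), a glutamate transporter of astrocytes. Those most like Ina were Cdk5r2 (0.946), Tagln3 (0.941) and Lhx1 (0.938), and for Des they were Acta1 (0.838), the skeletal actin, Siglecg (0.817) and Lrrc75a (0.792). For Nefl they were Greb1l (0.877), Clcn5 (0.871) and Ptger3 (0.851), and for Nefm Fgfbp3 (0.892), Robo3 (0.851) and Slit1 (0.817). Vim and Synm had no gene above 0.74 (Mblac2, 0.740, for Vim, and Zfp365, 0.726, for Synm). In the order of Nes levels, iNSC_KF and NSC libraries overlapped, and neither NSC and iNSC_BKMF nor iNSC_BKMF and BKM_FNV day 30 overlapped. The lowest group was BKM_Sox17 at day 30, with 458 in 1 library.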

How the data were processed

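RNA enriched with oligo(dT) was sequenced and the authors deposited 1 normalized expression score per gene and library (a normalized tag count), in 1 table for the NSC-medium experiment and 1 for the parallel experiment, which were normalized separately. Per the submitters' processing notes, Bowtie2 2.0 and RSEM were used with mm10. How the scores were normalized and the strand setting are not given in the sources used here. The values are whole numbers with a common top value per table (78139 and 87546), column sums are 17698392 to 17710071 and 17848683 to 17866021 without the library left out, and read depth is unknown, so no counting interval can be given.

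Groups came from the labels. Columns were matched to single samples by title, except the NSC columns of both tables, whose names match only the group, and 4 columns of the deposited tables matched no labelled sample and were not used. Each table was fitted with limma 3.58.1 in R 4.3.3 on log2(value + 2), with 1 mean per group, a trend in the prior variance and genes at 10 or more in at least 2 libraries. Tests were two-sided, with Benjamini-Hochberg adjustment over all genes of a comparison. They were also run on simulated data, whose result is not given here. Those data had independent noise and no common top value, so they do not test the p-values under this normalization. The named genes were the 8 members, their 3 most alike genes by correlation of group means, and in each list the genes with the largest called differences. The members, the lists and the tests were chosen with earlier results of these data known. Same-numbered replicates did not deviate together over all genes. Correlations of deviations were between -0.074 and 0.091 for the first table, and between -0.049 and 0.087 for the second. The main fit therefore did not pair libraries by number. A small shared effect, or one in few genes, would not show in these correlations. Gene overlap was read from GENCODE M21, and a comparison of coding sequences between members is not reported here.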

Additional observations from a re-analysis of the deposited data

Results flagged for a closer look

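The change of Nes from day 4 to day 18 on Dox differed between cocktails by a direct test. It was 1.90 ± 0.29 (SE) higher on the log2 scale in BKM_FNV than in BKM_Sox17 cells (limma, adjusted p = 0.000286) and 1.84 ± 0.29 higher in BKM_FNV than in BKM_Sox2 cells (adjusted p = 0.000107). In K_FNV against BKM_FNV cells the difference was -1.68 ± 0.29 (adjusted p = 6.67e-05). The Vim change differed by 1.11 ± 0.19 between BKM_FNV and BKM_Sox17 cells (adjusted p = 0.000611), on values that are steps between a few top ranks. These 4 results share the BKM_FNV libraries. With the left-out BKM_Sox2 library back in the fit, the Nes calls among them were lost. The Vim difference went under the fold threshold in some leave-outs, at the lowest 0.92.

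The change after Dox differed between LIF/2i and NSC medium for 3 members. The difference was -1.66 ± 0.13 for Nes (adjusted p = 4.39e-07), -2.84 ± 0.65 for Ina (adjusted p = 0.00361) and 2.82 ± 0.56 for Des (adjusted p = 0.0013). No group held enough libraries to look for single outlying samples.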

How the results depend on the processing

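The alternatives were other pseudocounts (1 and 8), no filter, a stricter filter (50), rescaled libraries, no trend, a fit of only the groups compared, the replicate block, the fit with BKM_Sox2 day 24 replicate 1, and leaving out each library. None of the 126 member differences recomputed (those called, at an adjusted p below 0.05 or of at least 1) reversed under any of them. The library left out of the fit had the widest effect, and why it differs from its replicate was not tested. Each group has its own mean in the fit, so differences between other groups stay the same with it. For those, only the estimated spread and the p-values change. With it the number of members called was 0 instead of 2 for BKM_FNV day 18 against day 4, 2 instead of 5 for BKM_Sox17, 1 instead of 3 for BKM_Sox2, 0 instead of 3 for K_FNV and 1 instead of 3 for day 4 against MEFs. For the courses it was 1 instead of 2 (BKM_FNV and BKM_Sox17), 0 instead of 1 (BKM_FNV and BKM_Sox2) and 0 instead of 1 (K_FNV and BKM_FNV). It ended 19 member calls, whose values stand beside the results. Over all genes, that fit called 2113 instead of 4752 (BKM_FNV day 18 against day 4), 1706 instead of 3953 (BKM_Sox17), 1470 instead of 3520 (BKM_Sox2), 737 instead of 2154 (K_FNV), 2384 instead of 3762 (day 4 against MEFs), 3600 instead of 5861 (BKM_FNV day 30 against NSC), 93 instead of 420 (iNSC_BKMF against NSC) and 708 instead of 1844 (iNSC_KF against NSC). It called 448 instead of 772 and 2266 instead of 3699 for BKM_FNV against BKM_Sox17 on and after Dox, 6694 instead of 3144 against BKM_Sox2 after Dox, 536 instead of 826 for BKM_Sox17 against BKM_Sox2, and 38 instead of 444, 225 instead of 1512 and 644 instead of 3056 for the courses.

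With only the groups compared, which leaves fewer samples, 1 instead of 2 members were called for the BKM_FNV and BKM_Sox17 courses, 3 instead of 5 for LIF/2i against NSC medium after Dox and 2 instead of 1 on Dox. All-gene calls were then 69 instead of 420 (iNSC_BKMF against NSC), 776 instead of 1844 (iNSC_KF against NSC) and 342 instead of 964 (N2B27 day 8 against day 4). A pseudocount of 1 gave 1 instead of 0 for BKM_Sox17 against BKM_Sox2 on Dox, and 8 gave 0 instead of 1 for LIF/2i against NSC medium on Dox. The replicate block called 1 instead of 0 for N2B27 day 8 against day 4 (Des, adjusted p = 0.0426) and ended Ina at N2B27 day 4 (0.0683) and Nefl in NSC medium after Dox (0.0532). It changed no other member's call.

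Leaving out 1 library, the members called ranged over 1 to 2 (BKM_FNV day 18 against day 4), 4 to 5 (BKM_Sox17), 2 to 3 (BKM_Sox2), 2 to 3 (K_FNV), 2 to 4 (day 4 against MEFs), 0 to 1 (iNSC_BKMF against NSC), 4 to 5 (BKM_FNV day 30 against NSC), 4 to 6 and 3 to 5 (BKM_FNV against BKM_Sox17 and BKM_Sox2 after Dox), 0 to 1 (BKM_Sox17 against BKM_Sox2 on Dox) and 1 to 2 (BKM_FNV and BKM_Sox17 courses). In the parallel table they ranged over 1 to 2 (N2B27 day 4), 0 to 1 and 4 to 5 (LIF/2i against NSC medium on and after Dox), 2 to 4 and 4 to 5 (after against on Dox in NSC and LIF/2i medium) and 4 to 6 (NSC medium after Dox against NSC). All-gene calls ranged from 330 to 634 (iNSC_BKMF against NSC) and 540 to 1193 (N2B27 day 8 against day 4). Depth is unknown and most groups hold 2 libraries, so Gfap, Ina and Nefm near 0 cannot be ranked.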

Other observations

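BKM_Sox2 day 24 replicate 1, left out of the fit, had 41 for Nes, 34127 for Vim, 2 for Gfap and 7 for Synm, and Ina, Nefl, Nefm and Des were listed at 0. Its replicate had 4810 for Nes, 29407 for Vim, 0 for Gfap and 129 for Synm.

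The NSC, iNSC_BKMF and MEF libraries stand in both tables, which were normalized apart. In the parallel table Nes was 10290 and 7922 in NSCs, 6728 and 6323 in iNSC_BKMF and 1333 and 1488 in MEFs, and Nefl was again listed at 0 in both NSC libraries.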
